A study of Mus musculus with 11 samples.

Results

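The 7 imprinted genes outside the Snrpn region examined here for peaks of Smchd1 binding were Grb10, Nnat, Sgce, Peg10, Kcnk9, Trappc9 and Peg13. They form 4 loci on 4 chromosomes and are 7 of the 49603 gene records of the RefSeq table (build GRCm38.p6, the assembly behind mm10). The genes were chosen by name from known imprinted genes, with the peaks of the 2 deposited lists already known. Whether a peak lies at them is therefore a description of why they were chosen, and no test was made of it. The lists give positions and hold no allele information, so imprinted expression itself could not be checked here.

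The study mapped Smchd1 by ChIP-seq, in which DNA bound by a protein is pulled down with an antibody and sequenced, in neural stem cells of C57BL/6 background that were grown from embryos of embryonic day 14.5 and passaged up to 20 times. In the MNase experiment, with micrococcal nuclease as the cutting agent, the groups were homozygous Smchd1-GFP fusion knock-in cells (1 male and 1 female library), wild-type cells (also 1 library of each sex) and whole cell extract (1 female library). In the sonication experiment, with 30 min of sonication in non-ionic detergent, the groups were homozygous Smchd1-GFP knock-in cells (2 female libraries), wild-type cells (2 female libraries) and whole cell extract (2 female libraries). An antibody to GFP served for the pull-down in knock-in and wild-type cells, and wild-type cells lack the tag. The knock-in places GFP on the endogenous Smchd1 in every cell, so the pull-down reads the tagged fusion protein. Each experiment was deposited as 1 pooled list of peak positions, without counts, heights or scores. No value per library, no depth and no spread between replicates was therefore known, and knock-in could not be set against wild-type at any single peak. With no expression values, the neural stem cell label could not be set against marker genes.

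Imprinted genes are expressed mainly from the copy inherited from 1 parent, and differential DNA methylation set in the germ line marks which copy that is. Smchd1 is a non-canonical protein of the SMC family that is needed for silencing of X-linked genes in female cells and of certain imprinted clusters. Some imprinted genes, such as Kcnk9 and Trappc9, show imprinted expression mainly in brain. Grb10 is the exceptional case of a switch between the parental copies, being expressed from the maternal copy in most tissues and from the paternal copy in neurons.

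The peaks near these genes were few, and 2 sites occurred in both lists. Counted once each, 3 MNase peaks and 4 sonication peaks lay within 50 kb of a member. One shared site lay inside Grb10 and the other in the stretch between Kcnk9 and Trappc9. The remaining peaks were 1 MNase peak at the border of Blcap, the gene that contains Nnat, 1 sonication peak inside Sgce and 1 sonication peak beside Kcnk9. Peg10 and Peg13 had no peak of either list within 50 kb.

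**Figure D1:**
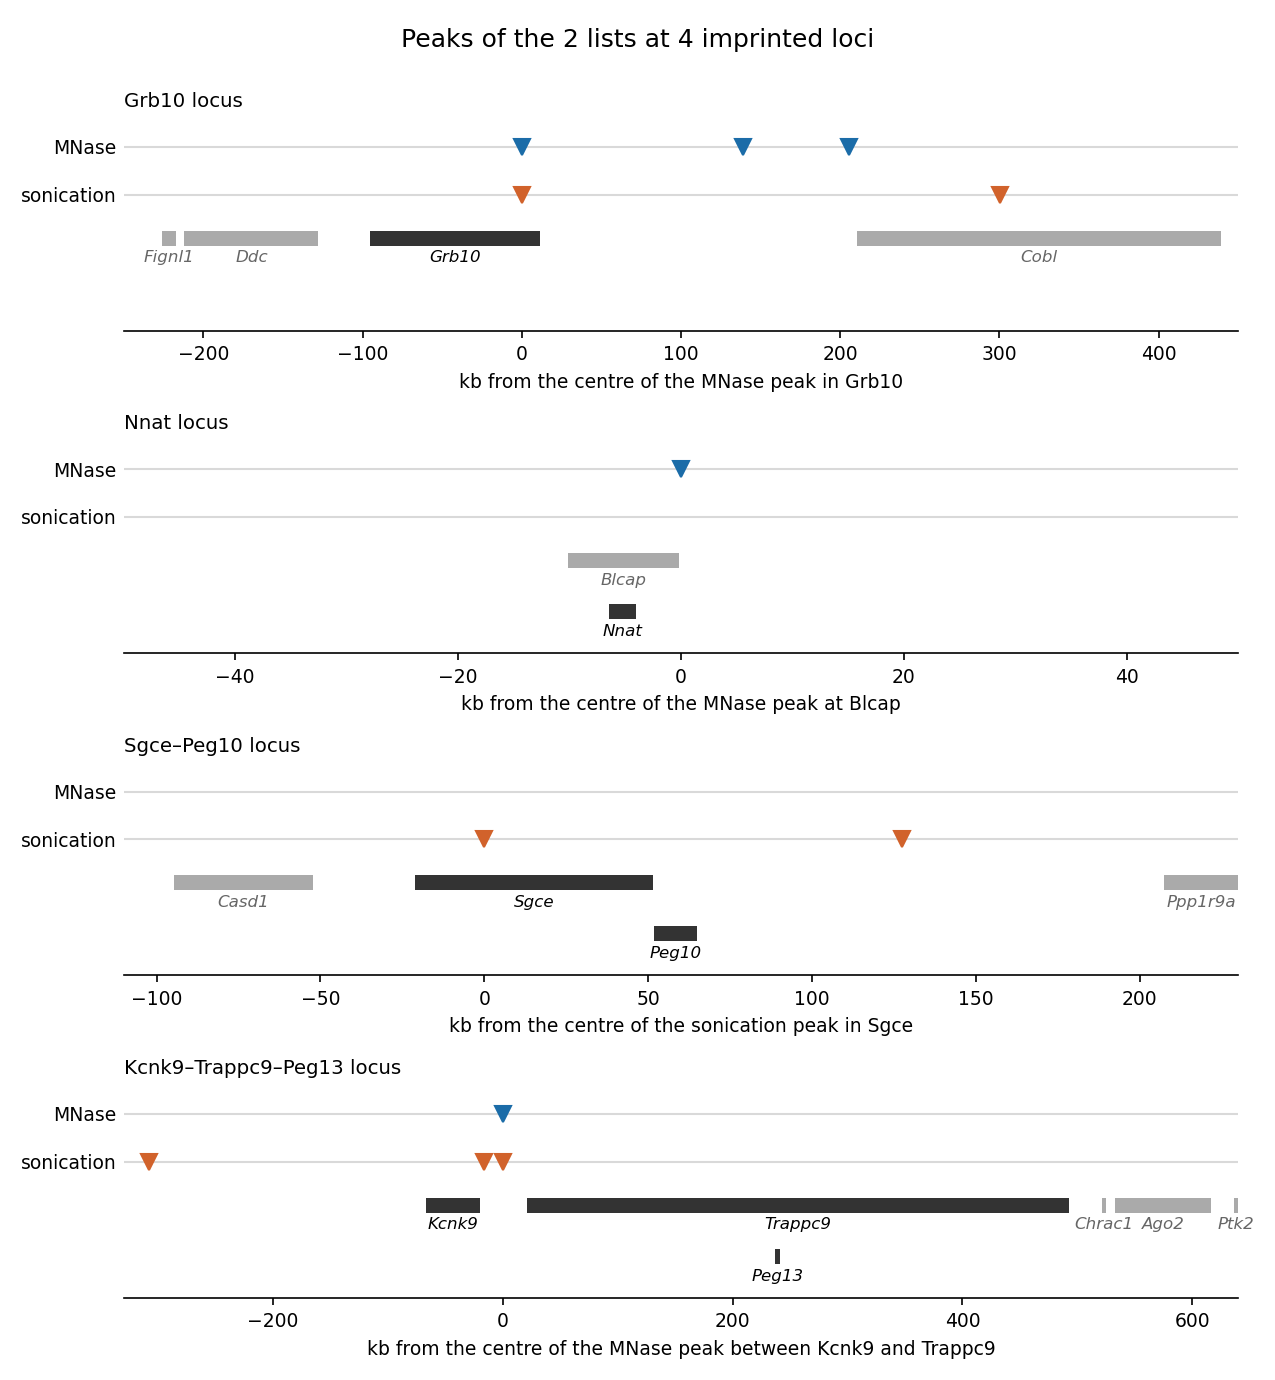
Peaks (triangles, MNase in blue above sonication in orange) and genes (bars, the 7 imprinted genes in dark and listed neighbours in grey) along 4 loci, in kb from the peak named under each axis. Triangles coincide in both lists in Grb10 and between Kcnk9 and Trappc9, and the Nnat row shows an MNase peak without a sonication peak.

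Promoter sequences are shown for Blcap, whose window lay under a peak, and for Grb10 and Nnat, the 2 of 7 members matched in the RefSeq promoter table (build GRCm38.p6), whose windows lay under none. The 250 bases before each listed transcription start are printed 5′ to 3′ on the gene's own strand, with CpG dinucleotides, the sites of DNA methylation, in capitals. The Blcap window, on the minus strand at chr2:157566362-157566611, is shown because it lay wholly inside an MNase peak.
Blcap: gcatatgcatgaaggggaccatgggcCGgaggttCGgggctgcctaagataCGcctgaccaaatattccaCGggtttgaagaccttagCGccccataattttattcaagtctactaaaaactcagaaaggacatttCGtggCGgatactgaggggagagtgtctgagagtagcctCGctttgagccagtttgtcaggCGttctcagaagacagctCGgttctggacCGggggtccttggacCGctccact
The inner Grb10 start, on the minus strand with its window at chr11:12027972-12028221, is shown because it was the listed start nearest to the shared Grb10 site.
Grb10 inner start: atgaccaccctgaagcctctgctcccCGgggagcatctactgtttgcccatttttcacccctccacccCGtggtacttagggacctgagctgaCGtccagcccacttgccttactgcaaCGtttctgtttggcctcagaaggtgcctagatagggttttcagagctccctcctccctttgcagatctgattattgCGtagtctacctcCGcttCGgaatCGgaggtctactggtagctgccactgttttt
The outer Grb10 start, on the minus strand with its window at chr11:12037421-12037670, is shown beside it because it had no peak near it and a different base composition.
Grb10 outer start: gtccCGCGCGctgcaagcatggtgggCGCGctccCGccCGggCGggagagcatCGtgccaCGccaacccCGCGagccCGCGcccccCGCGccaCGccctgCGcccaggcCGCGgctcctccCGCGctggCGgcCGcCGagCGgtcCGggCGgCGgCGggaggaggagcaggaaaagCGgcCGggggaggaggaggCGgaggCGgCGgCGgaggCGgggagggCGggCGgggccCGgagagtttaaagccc
The Nnat window, on the plus strand at chr2:157559828-157560077, is shown because the peak nearest to Nnat lay elsewhere, at the start of Blcap.
Nnat: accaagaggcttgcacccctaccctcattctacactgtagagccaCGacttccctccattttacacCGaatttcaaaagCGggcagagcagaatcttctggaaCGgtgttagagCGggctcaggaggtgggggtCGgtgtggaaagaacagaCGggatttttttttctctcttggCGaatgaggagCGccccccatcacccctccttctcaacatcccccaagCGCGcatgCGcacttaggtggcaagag

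The windows differed in CpG content. The outer Grb10 window held 40 CpG and was 81.2% G or C, and 1.31% of the 32851 windows in the table held at least as many CpG. The inner Grb10 window held 8 CpG at 54.0% G or C, the Nnat window 12 at 54.8% and the Blcap window 12 at 52.8%, against a median of 6 CpG and 52.4% over all windows. The Grb10 peaks thus lay nearer to the start whose window held fewer CpG. The bases under these peaks were not at hand, so their own CpG content is not known. The letters TGCCGC, the core of the motif of Zfp57, a zinc finger protein that protects methylated imprints, occurred in none of these 4 windows on either strand, and were present in 8.68% of all windows. The letters AAGATGGC, the core of the motif of the zinc finger protein YY1, occurred in none of them either and in 1.56% of all windows. These matches were counted on both strands with overlaps allowed. They describe the letters in these windows only, of which the Blcap window alone lay under a peak. The shared sites were not searched, as their sequence was not at hand.

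Grb10 encodes an adaptor that binds the insulin and insulin-like growth factor receptors and restrains growth. The gene runs from 11930499 to 12037428 on chromosome 11, over 106.9 kb. Its MNase peak was 900 bp wide, from 12025501 to 12026400, and its sonication peak was 1050 bp wide, from 12025651 to 12026700. They shared 750 bp, which made up 83.3% of the MNase peak and 71.4% of the sonication peak. The MNase centre minus the sonication centre was -225 bp, not far from the 150 bp step of the grid on which all peaks start. No other peak of either list lay within 50 kb of Grb10.

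The shared site lay inside the gene, toward its 5′ end. Grb10 is read on the minus strand, and its 2 listed starts, at 12037420 and 12027971, are 9.45 kb apart. The site was downstream of both. The MNase peak ended 1571 bp and the sonication peak 1271 bp from the inner start. From the outer start, the CpG-rich one printed above, the distances were 11020 bp for the MNase peak and 10720 bp for the sonication peak. The inner region of Grb10 is known for alternative promoters used in brain and for a methylated imprint. Methylation was not measured, and the table gives no exons, so whether the site coincides with that imprint, or lies in an exon or an intron, was not analysed here.

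In width, the sonication peak in Grb10 stood near the top of its list. Of 1646 autosomal sonication peaks, 23 (1.40%) were at least 1050 bp wide, where 69.5% had the smallest width of 300 bp. The MNase peak in Grb10 was less unusual, since 420 of 2828 autosomal MNase peaks (14.9%) were at least 900 bp wide. Width was the property of a peak that the lists offered besides its position, and is no measure of enrichment.

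**Figure D2:**
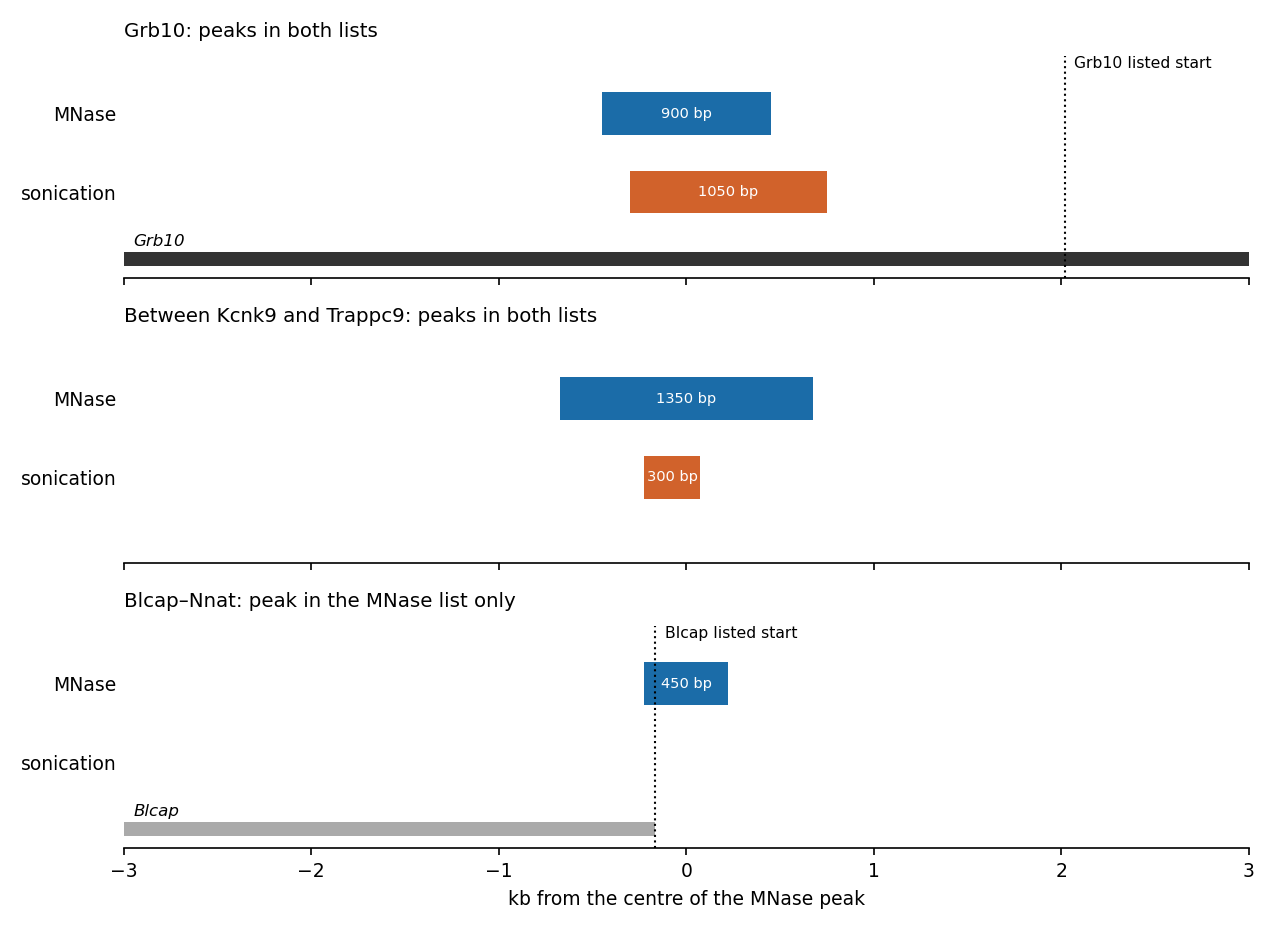
Peaks of both lists within 3 kb of the centre of the MNase peak at 3 sites, drawn to scale with their widths in bp. Dotted lines mark listed transcription starts, and grey or dark bars at the bottom mark gene bodies. The Grb10 peaks overlap by 750 bp downstream of the inner start, the sonication peak of 300 bp is nested in the MNase peak of 1350 bp between Kcnk9 and Trappc9, and the MNase peak of 450 bp covers the Blcap start.

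Kcnk9 encodes a leak potassium channel that sets the resting potential of neurons, Trappc9 encodes a subunit of a complex that tethers transport vesicles, and Peg13 is a non-coding RNA gene inside Trappc9. Kcnk9 is known to be expressed in brain from the maternal copy and Peg13 from the paternal copy. On chromosome 15, Kcnk9 runs from 72501873 to 72548614, Trappc9 from 72589620 to 73061238 and Peg13 from 72805602 to 72810324. Between Kcnk9 and Trappc9 lie 41.0 kb, where no peak of either list overlapped a gene record. The second shared site was near the middle of this stretch.

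There the MNase peak was 1350 bp wide, from 72568201 to 72569550, and lay 19.6 kb from Kcnk9 and 20.1 kb from Trappc9. The sonication peak was 300 bp wide, from 72568651 to 72568950, and lay 20.0 kb from Kcnk9 and 20.7 kb from Trappc9. It fell wholly inside the MNase peak and took up 22.2% of it, and the MNase centre lay 75 bp above the sonication centre. The order of widths was thus opposite to Grb10, where the sonication peak was the wider. Of the autosomal MNase peaks, 177 (6.26%) were at least as wide as this one, the widest MNase peak within 50 kb of any of the 7 genes.

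A second sonication peak in the same stretch, 300 bp wide from 72552001 to 72552300, lay 3.39 kb from Kcnk9 and 37.3 kb from Trappc9, with no MNase peak over it. Neither list had a peak inside Kcnk9, Trappc9 or Peg13. Trappc9, at 471.6 kb, was the longest of the 7 genes. The 352 coding genes longer than 400 kb were counted over autosomes and sex chromosomes together. Of them, 39.2% held an MNase peak and 39.5% a sonication peak. Neither was held by 135 (38.4%), so a long gene without a peak was common. Peg13 was 236.1 kb from the nearest MNase peak and 236.7 kb from the nearest sonication peak, which in both lists was the shared site between Kcnk9 and Trappc9.

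Nnat encodes neuronatin, a small membrane protein of the endoplasmic reticulum in neurons and endocrine cells, expressed from the paternal copy. The gene is 2.45 kb long, from 157560078 to 157562525 on chromosome 2, and lies within Blcap, a gene read on the opposite strand from 157566361 down to 157556362. The MNase list had 1 peak here, 450 bp wide from 157566301 to 157566750. It began 3776 bp past the end of Nnat and 6.22 kb from the listed Nnat start. The same peak covered the listed Blcap start, taking in the last 61 bp of the Blcap span and all of the promoter window printed above. By position it was thus a peak at the Blcap promoter, and it counts for Nnat through the 5 kb distance alone. Blcap, whose product is a small protein linked to cell death and tumour suppression, is itself imprinted for some of its transcripts in brain.

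Promoter windows that carried a peak were a small share in both lists. The share of all peaks that lie at promoters is another measure and was not counted. Of 32851 promoter windows of 250 bases, 0.804% were touched by an MNase peak and 0.0731% by a sonication peak. The sonication list had no peak near Blcap or Nnat, the nearest being 1410 kb from Nnat. Of the autosomal MNase peaks, 61.9% were at least as wide as the one at Blcap.

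Sgce encodes epsilon-sarcoglycan, a membrane protein of the dystrophin-linked complex known for myoclonus-dystonia in humans, and Peg10 is a gene derived from a retrotransposon that is needed for the placenta in mice. Both are expressed from the paternal copy. Sgce runs from 4674350 to 4747204 and Peg10 from 4747306 to 4760517 on chromosome 6, with 101 bp between them, where their shared imprinted promoter region lies. The sonication list had 1 peak in Sgce, 300 bp wide from 4695451 to 4695750. It lay 21.1 kb from the far end of Sgce and 51.5 kb from the end next to Peg10. The peak therefore sat in the body of Sgce, away from the short gap between the genes.

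The MNase list had no peak at this locus. The nearest MNase peak was 634.9 kb from Sgce and 621.6 kb from Peg10. Peg10 fell just outside the 50 kb distance, with the sonication peak in Sgce at 51.6 kb. A further sonication peak of 450 bp, from 4822801 to 4823250, lay 62.3 kb from Peg10 and 75.6 kb from Sgce. Just inside the 5 kb distance were Kcnk9 in the sonication list, at 3.39 kb, and Nnat in the MNase list, at 3.78 kb.

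**Figure D3:**
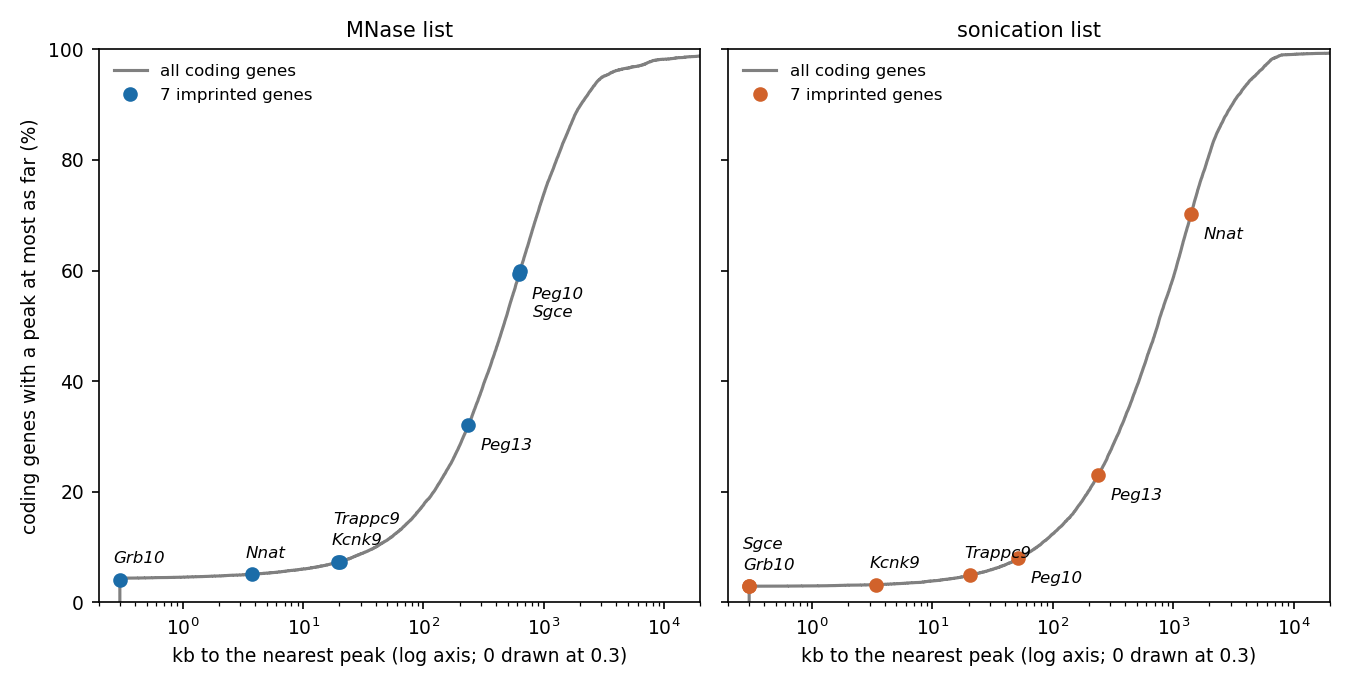
Distance from each of the 7 imprinted genes to its nearest peak (points; log axis, with peaks inside a gene drawn at 0.3 kb) on the cumulative share of all 21779 coding genes with a peak at most as far (line, in percent), for the MNase list and the sonication list. Grb10 is at 0 in both panels, Nnat is at 3.78 kb in the MNase panel and at 1410 kb in the sonication panel, and Sgce is at 634.9 kb in the MNase panel and at 0 in the sonication panel.

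By gene, 1 of 7 members held an MNase peak, 2 had one within 5 kb and 4 within 50 kb. The same shares over all 21779 coding genes were 4.13%, 5.28% and 11.3%. For the sonication list, 2 of 7 members held a peak, 3 had one within 5 kb and 4 within 50 kb, against 2.92%, 3.38% and 7.84% of coding genes. The coding genes include those on the sex chromosomes, whereas all 7 members are autosomal. Of 2840 MNase peaks 2828 were autosomal, but of 2196 sonication peaks only 1646. Shares over autosomal coding genes alone were not computed. Peg13 is also non-coding, and over all gene records the shares within 5 kb were 3.72% for the MNase list and 2.25% for the sonication list. A site in both lists lay in 1 member and within 50 kb of 3 members, against 0.147% and 0.28% of coding genes, and Kcnk9 and Trappc9 count the same site. Within 5 kb the count was also 1 member, against 0.193%. Since the members were picked with these peaks known and share peaks within a locus, nothing is read from these counts. The share of genes that held a peak depended on gene length. Among coding genes under 20 kb, the length class of Nnat and Peg10, 1.76% held an MNase peak and 0.391% a sonication peak. Among those of 20 to 120 kb, the class of Grb10, Sgce and Kcnk9, 3.92% held an MNase peak and 2.97% a sonication peak.

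Sites found in both lists were rare throughout the autosomes. Of 2828 autosomal MNase peaks, 47 (1.66%) overlapped a sonication peak by at least 1 bp, and of 1646 autosomal sonication peaks 49 (2.98%) overlapped an MNase peak. Of the 52 overlapping pairs, 25 were in the Hox clusters and 27 elsewhere, on 11 chromosomes. The Grb10 site and the site between Kcnk9 and Trappc9 were 2 of these 27. The overlap at Grb10, 750 bp, equalled the median overlap of the pairs outside the Hox clusters, of which 14 shared at least 750 bp. The overlap of 300 bp between Kcnk9 and Trappc9 was among the smallest, since 51 of the 52 pairs shared at least that much. Of the sonication peaks outside the Hox clusters that overlapped an MNase peak, 8 of 26 were at least as wide as the one in Grb10.

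**Figure D4:**
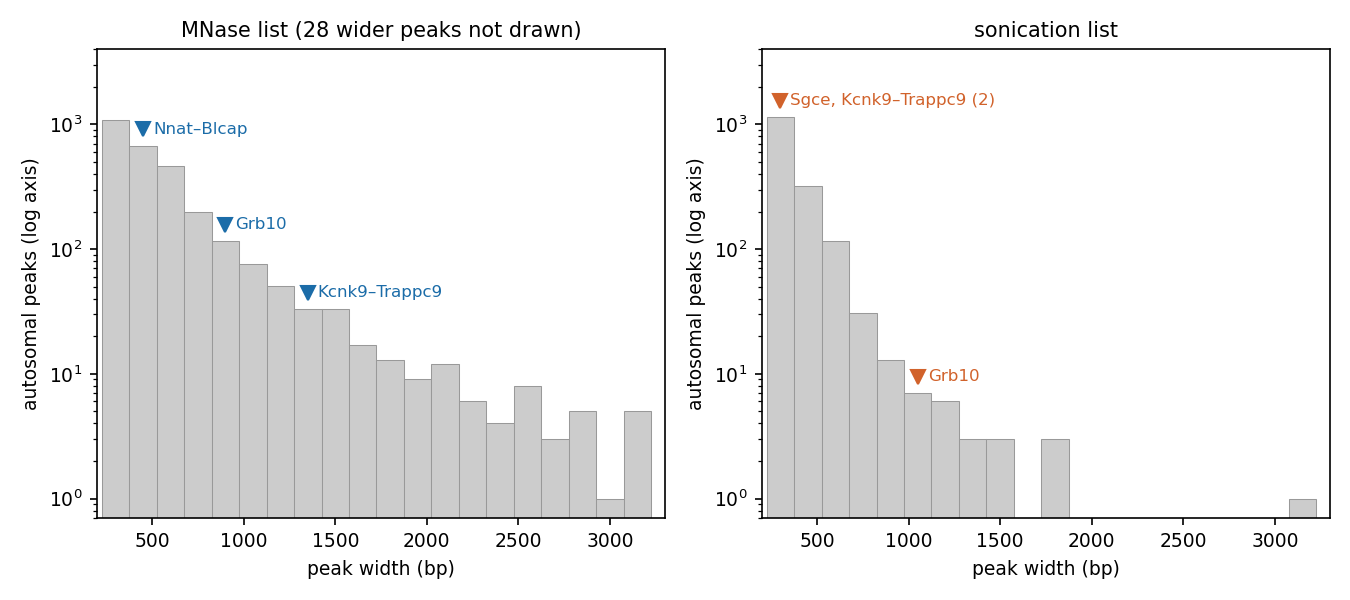
Widths in bp of all autosomal peaks (grey bars, counts on a log axis) in the MNase list and the sonication list, with triangles at the widths of the peaks within 50 kb of the 7 imprinted genes. In the MNase panel 28 peaks wider than the axis are not drawn. The sonication peak in Grb10 stands apart at 1050 bp, and the other 3 sonication peaks are at the smallest width.

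Of 20 listed neighbours of the members, 2 (10%) had an MNase peak within 5 kb and 1 (5%) a sonication peak, against 5.28% and 3.38% of all coding genes. One of those MNase peaks, at Blcap, is the same peak that counts for Nnat within 5 kb. The neighbours were named with earlier results of these data known, so nothing is read from these shares. Besides Blcap, the MNase peak was at Asb4, which encodes an ankyrin repeat protein and lies beyond Peg10: 750 bp wide, from 5382151 to 5382900 on chromosome 6, it ended 486 bp from the listed Asb4 start. The sonication peak, 300 bp wide from 12326101 to 12326400 on chromosome 11, lay in Cobl, the gene of an actin nucleator next to Grb10. An MNase peak of 300 bp from 12231151 to 12231450 lay 5226 bp from Cobl on the side of Grb10. None of these was in both lists. Ddc, on the other side of Grb10 and imprinted in the developing heart, was 127.4 kb from the nearest MNase peak and 127.5 kb from the nearest sonication peak. Casd1 and Ppp1r9a, the genes flanking Sgce and Peg10, had none within 50 kb, and neither did Chrac1 and Ago2 beyond Trappc9.

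Peaks were also counted in a wider window around each locus. Within 500 kb on either side there were 4 MNase and 3 sonication peaks around Grb10, 2 and 0 around Nnat, 0 and 2 around Sgce and Peg10, and 1 and 3 around Kcnk9, Trappc9 and Peg13. The windows spanned 1.00 to 1.56 Mb. Per Mb there were 3.61 MNase and 2.71 sonication peaks around Grb10, and 2.00 and 0 around Nnat. Around Sgce and Peg10 the rates were 0 and 1.84, and around Kcnk9, Trappc9 and Peg13 they were 0.641 and 1.92. The autosomal average was 1.18 MNase and 0.685 sonication peaks per Mb. Since the loci were chosen with these peaks known, nothing is read from the difference. The windows thus divided by list. That around Nnat had MNase peaks alone, none of them in Nnat itself. That around Sgce and Peg10 had sonication peaks alone, and those around Grb10 and around Kcnk9, Trappc9 and Peg13 had both. Presence in 1 list alone is not shown to be a difference between the experiments, since no read counts were at hand, and the sex of the cells and the fragmentation changed together.

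Other imprinted genes were counted in the same way. Of 52 listed names, 51 matched a RefSeq record. MNase peaks lay in 7 of the 51 genes (13.7%), within 5 kb of 9 (17.6%) and within 50 kb of 14 (27.5%), against 4.13%, 5.28% and 11.3% of coding genes. Sonication peaks lay in 1 (1.96%), within 5 kb of 1 (1.96%) and within 50 kb of 4 (7.84%), against 2.92%, 3.38% and 7.84% of coding genes. Several of these genes lie in the same cluster and can share a peak, and the MNase list is the longer of the pair. A site in both lists lay in 1 of the 51 (1.96%), against 0.147% of coding genes. The 52 names were listed with earlier results of these data known, so nothing is read from these shares. Of the 11 broad domains in the authors' domain list, 0 were on the chromosomes of the 7 genes, so these sites were peaks outside any called domain.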

How the data were processed

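Binding was measured in 11 libraries of 2 experiments. Per the submitters' processing notes, bcl2fastq, Bowtie 0.12.9 and MACS2 and the build mm10 were used, with no role or order given. The authors deposited 1 pooled peak list per experiment and 1 list of domains. Per the file headers, the lists give base positions only, and the MNase rows name SeqMonk as the origin. No source used here says how control libraries entered. All peaks start on a 150 bp grid and are at least 300 bp wide, so distances and widths carry that step.

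Distances ran between nearest ends of a peak and a RefSeq gene span. The 340 gene records placed in the unassembled first 3 Mb of chromosomes were dropped. This left 49603 on autosomes and sex chromosomes, of which 21779 were coding. Peaks overlapped from 1 bp. Tools were Python 3.11.15, pandas 2.3.3, numpy 2.4.6 and matplotlib 3.10.9, and the distance and overlap steps were tested on simulated data. The planned test of knock-in against wild-type counts was not run, as the lists hold none. The members and gene lists were chosen with earlier results of these data known. Genes were named by a rule: all members, genes at or nearest to peaks within 50 kb of them, and 20 neighbours.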

Additional observations from a re-analysis of the deposited data

How the results depend on the processing

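The settings tried left 15 of 22 alternative values within 1.5 times of the reported ones. With peaks wider than 300 bp alone, sonication peaks within 5 kb fell to 1, those within 50 kb to 1 and members with a sonication peak within 5 kb to 1, Grb10, by construction, since the other sonication peaks had the smallest width. The same limit, tried on shared sites after the data were seen, left 1 of the 2 sites, that in Grb10. Members with an MNase peak numbered 1 for gene bodies and 4 at 50 kb. Over all gene records, 2.25% had a sonication peak within 5 kb. Both shared sites were kept with an overlap of at least 50% of the shorter peak, with a gap of up to 1 kb and, also tried after the data were seen, with neighbouring peaks merged. No paired analysis was possible because the lists pool the libraries, and for the same reason no replicate could be left out. Sequencing depth was unknown, so an absent peak shows no absence of binding.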

Other observations

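The nearest other site found in both lists on the Grb10 side of chromosome 11 was at Zpbp, which encodes a sperm protein that binds the egg coat. It was chosen after its values were seen. Its MNase peak was 1500 bp wide, from 11461651 to 11463150, and its sonication peak was 1050 bp wide, from 11461651 to 11462700, both starting at the same base. Both covered the listed Zpbp start at 11462419. This site lay 467.3 kb from Grb10 by its MNase peak and 467.8 kb by its sonication peak. Unlike the Grb10 site, it lay over a listed start.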
